A study of Mus musculus with 19 samples.

Results

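Fatty acid oxidation and ketogenesis were followed in mouse liver through 33 genes, chosen by name as the enzymes, carriers and regulators of mitochondrial and peroxisomal β-oxidation together with 1 enzyme of ketone body metabolism. Each gene was a row of a count table of 55416 gene lines, and all 33 were among the 15570 genes with enough counts to be tested. The table held 19 liver libraries from C57BL/6 mice, 4 each from wild-type (WT) mice that received no injection (normal), WT mice given vehicle and WT mice given furosemide. IL-6-/- mice, called knockout below, gave 4 vehicle libraries and 3 furosemide libraries. Furosemide is a loop diuretic that was used to produce pre-renal azotemia (PRA), a rise of nitrogen waste in blood caused by poor perfusion of the kidney. The vehicle and PRA groups received 2 intraperitoneal injections 3 h apart, of 4 mg furosemide each in the PRA groups, and the organ was collected at 6 h, counted from the first of them. The normal group thus differed from the PRA groups by the injections as well as by furosemide. Age and sex, and whether each library came from a different animal, were not stated in the labels, so p-values measure only the spread between these libraries.

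In the liver, fatty acids are taken up, bound in the cytosol, activated to acyl-CoA and carried as acyl-carnitines into mitochondria, where each turn of β-oxidation shortens the chain and releases acetyl-CoA. When acetyl-CoA is plentiful, as in fasting, hepatocytes turn it into the ketone bodies acetoacetate and β-hydroxybutyrate for export. Very long and branched chains are first shortened in peroxisomes, and the nuclear receptor PPARα switches on genes at every step of both pathways.

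The 4 genes that were lower with furosemide in WT liver, Ppara, Fabp1, Acsl1 and Bdh1, are described first by their promoters, since they sit at different steps of the pathway and PPARα target genes are known for sites in which AGGTCA half-sites lie side by side. The windows run from 250 bases before to 50 bases after a transcription start (RefSeq, build GRCm38.p6), and where a gene had 2 windows the one with the closer match is shown. They lie at chr15:85735526-85735825 (Ppara, plus strand), chr6:71199629-71199928 (Fabp1, plus strand), chr8:46490716-46491015 (Acsl1, plus strand) and chr16:31428503-31428802 (Bdh1, plus strand). Capitals mark a stretch with at most 2 of 12 letters differing from AGGTCA, any 1 base, AGGTCA, read on either strand.
Ppara: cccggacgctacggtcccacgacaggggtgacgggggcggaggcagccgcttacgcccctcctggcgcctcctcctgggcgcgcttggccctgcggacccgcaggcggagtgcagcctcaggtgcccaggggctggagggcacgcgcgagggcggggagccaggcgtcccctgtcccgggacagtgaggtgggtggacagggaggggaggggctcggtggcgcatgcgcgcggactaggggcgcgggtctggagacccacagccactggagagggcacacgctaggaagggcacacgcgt
Fabp1: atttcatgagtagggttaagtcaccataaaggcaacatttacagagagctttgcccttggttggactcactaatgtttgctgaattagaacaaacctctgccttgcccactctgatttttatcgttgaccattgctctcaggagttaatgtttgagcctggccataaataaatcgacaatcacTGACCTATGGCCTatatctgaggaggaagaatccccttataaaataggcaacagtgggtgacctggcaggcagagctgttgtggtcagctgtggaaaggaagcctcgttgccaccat
Acsl1: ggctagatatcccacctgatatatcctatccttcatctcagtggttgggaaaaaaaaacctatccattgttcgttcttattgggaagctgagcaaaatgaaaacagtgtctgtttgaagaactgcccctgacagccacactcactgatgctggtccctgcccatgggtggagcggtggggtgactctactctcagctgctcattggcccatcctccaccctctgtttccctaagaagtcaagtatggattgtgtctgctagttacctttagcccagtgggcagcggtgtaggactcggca
Bdh1: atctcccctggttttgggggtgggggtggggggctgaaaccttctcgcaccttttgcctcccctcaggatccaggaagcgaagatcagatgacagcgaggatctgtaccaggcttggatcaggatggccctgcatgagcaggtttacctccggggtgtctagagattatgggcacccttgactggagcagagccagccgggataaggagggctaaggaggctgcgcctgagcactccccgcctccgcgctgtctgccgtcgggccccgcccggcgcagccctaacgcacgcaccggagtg
Of these 4 windows only that of Fabp1 held such a stretch, with 1 letter differing. The closest stretches differed by 4 letters in Ppara, 4 in Acsl1 and 3 in Bdh1. A promoter window was found for 28 of the 33 genes, in 30 windows, and 4 of the 30 (13.3%) held a stretch with at most 2 differing letters, against 3.86% of all 32851 windows in the table. With at most 3 differing letters the shares were 30% against 24.65%, and with at most 4 they were 80% against 79.82%. The other 3 were those of Cd36, Slc25a20 and Etfa, with 2 letters differing in each.
Cd36: TGGCCTCTGACTT
Slc25a20: AGGTGAAAGGTCG
Etfa: TTACCTTTGCCCT
These 3 stretches lie in the windows chr5:17835847-17836146 (minus strand), chr9:108661886-108662185 (plus strand) and chr9:55512194-55512493 (minus strand). Slc25a20, Etfa and Cd36 were not called with furosemide in either genotype in the main edgeR test.

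Levels are given as CPM, counts scaled to library size with TMM factors. Gene counts per library ranged from 32073865 to 74041441. Divided by the length of each gene's merged exons (GENCODE M21, which is not the annotation the counts were made with), levels in normal liver spanned from 9822 ± 790 CPM per kb (SD, n = 4) for Fabp1, the main fatty acid binding protein of hepatocyte cytosol, to 2.97 ± 0.412 CPM per kb (SD, n = 4) for Ppara. The mitochondrial thiolase Acaa2 followed at 467 CPM per kb and its peroxisomal counterpart Acaa1b at 398 CPM per kb. The fatty acid translocase Cd36, at 3.80 CPM per kb, was next to lowest. The ratio of the highest to the lowest group mean ran from 1.05 for the carnitine carrier Slc25a20 to 4.03 for the pantetheinase Vnn1, with a median of 1.22 over the 33 genes.

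**Figure D1:**
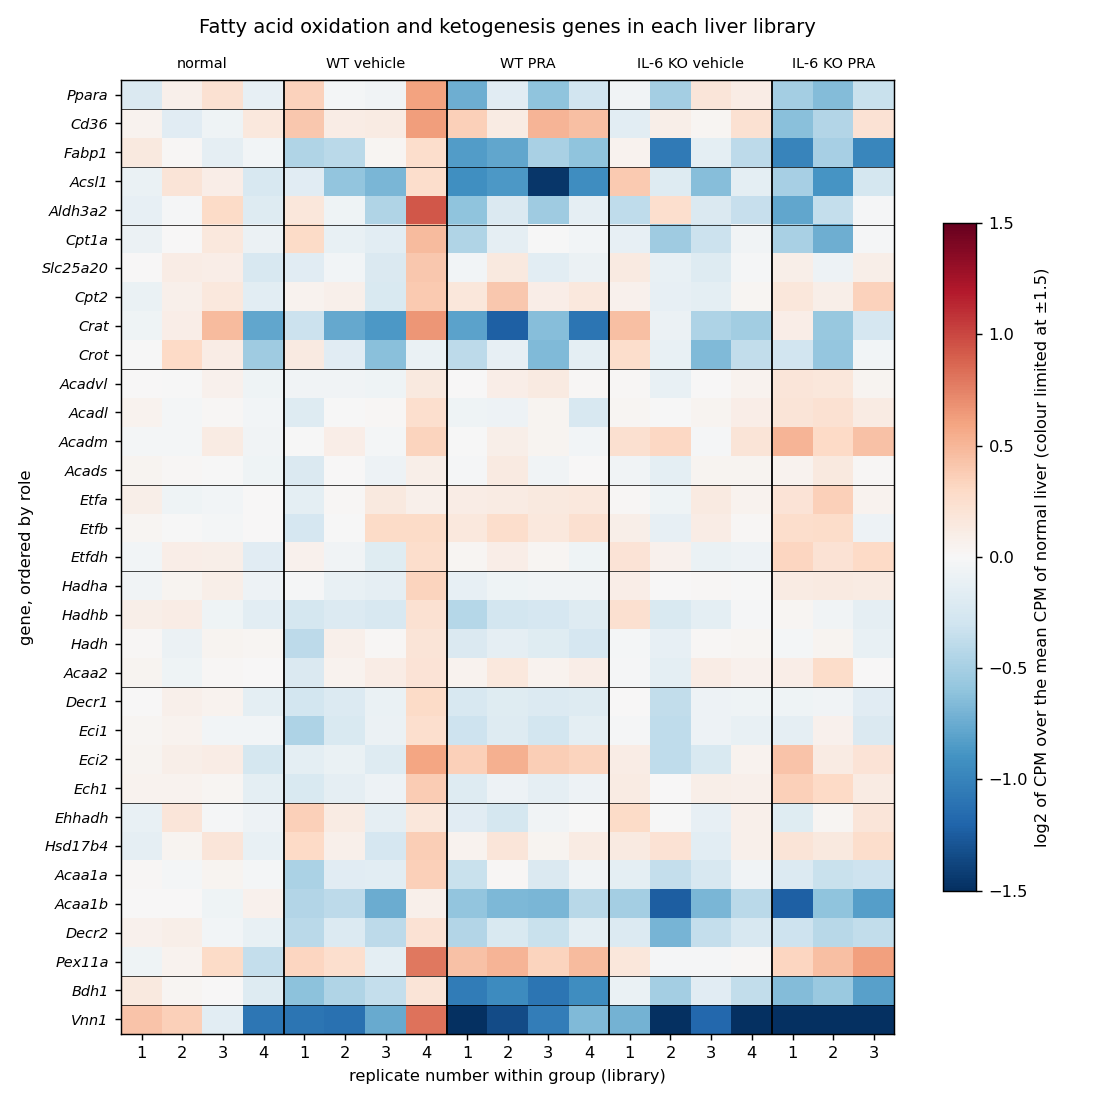
Level of each of the 33 genes (rows, by role) in each of the 19 libraries (columns, by group and replicate number), as log2 of CPM over the mean CPM of normal liver. WT vehicle replicate 4 is red over most rows, Bdh1 and Acsl1 are blue in all 4 WT PRA libraries, and most rows of mitochondrial enzymes stay pale throughout.

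One vehicle library stood apart in these genes. WT vehicle replicate 4 was the highest of its group for 29 of the 33 genes, while it was the highest for 18.8% of all genes tested. It lay above the mean of the other 3 WT vehicle libraries for all 33, by a median ratio of 1.38 and by up to 3.45 for Vnn1. Averaged over the 33 genes, its log2 level was 0.36 above normal liver, while the other 3 lay between -0.19 and -0.13. Knockout vehicle replicate 2 was the lowest of its group for 20 of the 33 genes and for 29.4% of all genes, and normal replicate 4 was the lowest of its group for 21 of the 33 and for 22.7% of all genes. Values without a library are given only for the genes so marked, and leaving a library out changed further calls for which no values are given. The part of any other difference between these livers was not tested.

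**Figure D2:**
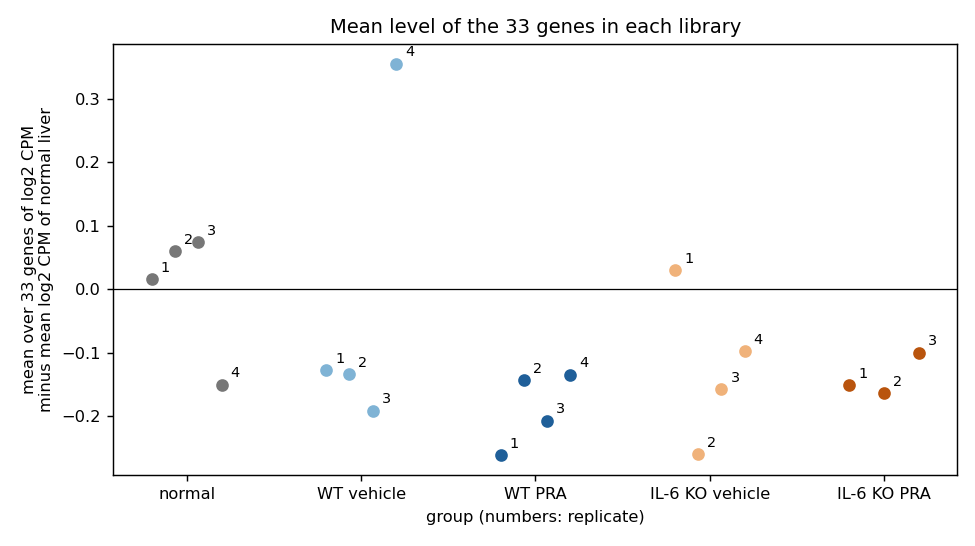
Mean over the 33 genes of log2 CPM minus the mean log2 CPM of normal liver (vertical axis), 1 point per library, numbered by replicate, for the 5 groups. WT vehicle replicate 4 lies at 0.36, above every other library, and the next highest, normal replicate 3, lies at 0.07.

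With furosemide 4 of the 33 genes fell in WT liver and none rose. In edgeR's quasi-likelihood test with Benjamini-Hochberg adjustment over all 15570 genes, at an adjusted p of at most 0.05, 12.3% of all genes were lower and 9.74% were higher. Upper quartile scaling moved the share of calls that were higher from 44.1% to 34.0% in WT and from 48.7% to 35.3% in the knockout. The 4 of 33 that fell were a share near that of all genes. For these 4 all WT PRA libraries also lay below every WT vehicle library, as they did for 12.1% of all genes. The median log2 fold change of the 33 genes was -0.11, against -0.03 for all genes, and without WT vehicle replicate 4 it was 0.01.

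Bdh1, the mitochondrial enzyme that interconverts acetoacetate and β-hydroxybutyrate, fell most firmly. Its levels were 139, 156, 166 and 243 CPM in the WT vehicle libraries and 103, 111, 99.3 and 111 CPM in the WT PRA libraries. The fall was 1.66-fold (log2 fold change -0.73, SE 0.14, edgeR adjusted p = 0.000533). Without WT vehicle replicate 4, whose 243 CPM was the highest value, Bdh1 still fell (log2 fold change -0.53, adjusted p = 0.00161). Normal liver held 213 ± 20.5 CPM (SD, n = 4), and WT PRA was 2.01-fold below it (adjusted p = 1.2e-05).

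Ppara, which encodes the receptor itself, fell 1.59-fold in WT liver with furosemide. Its levels were 14.5, 11.1, 11.0 and 17.2 CPM with vehicle and 6.87, 10.1, 7.49 and 9.31 CPM with furosemide. All 4 PRA values lay below all 4 vehicle values (log2 fold change -0.67, SE 0.17, edgeR adjusted p = 0.00634), and the call held without WT vehicle replicate 4 (-0.53, adjusted p = 0.03). Normal liver, at 11.4 ± 1.58 CPM (SD, n = 4), lay between. The difference of WT PRA from it did not pass in the main edgeR test (log2 fold change -0.43, adjusted p = 0.0605). Ppara was called lower than in normal liver with upper quartile scaling, the 1 CPM filter, only the groups compared and limma-voom with sample weights. The same call came without WT PRA replicate 2.

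Acsl1, a long-chain acyl-CoA synthetase that activates fatty acids for oxidation and for lipid synthesis, fell 1.72-fold. WT vehicle libraries held 657, 488, 457 and 885 CPM, and WT PRA libraries held 388, 405, 267 and 387 CPM. The log2 fold change was -0.78 (SE 0.22, edgeR adjusted p = 0.0174). This call rested on single libraries, since leaving out WT vehicle replicate 4 ended it (-0.56, adjusted p = 0.0681), as did leaving out WT PRA replicate 3, the lowest at 267 CPM (-0.66, adjusted p = 0.0559). Against normal liver the fall was 2.04-fold (adjusted p = 0.00211).

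Fabp1 fell 1.48-fold, from 3989, 4089, 5527 and 6542 CPM with vehicle to 3031, 3156, 3890 and 3560 CPM with furosemide. The ranges did not overlap, yet they nearly touched (log2 fold change -0.56, SE 0.19, edgeR adjusted p = 0.0439). The call was lost when WT vehicle replicate 4 was left out (-0.41, adjusted p = 0.153), and also without WT vehicle replicate 3 or WT PRA replicate 1, 2 or 4, at adjusted p of 0.0944, 0.111, 0.105 and 0.071.

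**Figure D3:**
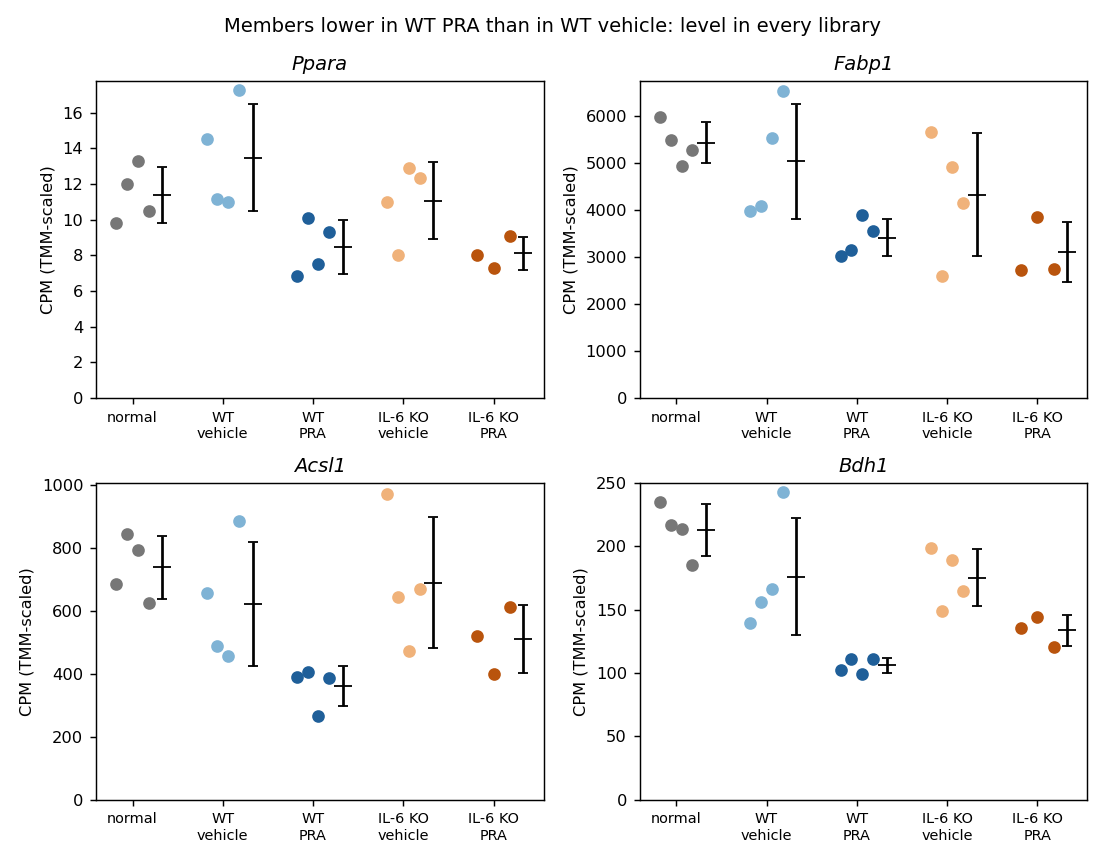
CPM of Ppara, Fabp1, Acsl1 and Bdh1 (vertical axes, from 0) in every library of the 5 groups. Points are libraries and black bars the group mean ± SD (n = 4, and 3 for knockout PRA); the 4 WT PRA points lie below the 4 WT vehicle points in each panel, Bdh1 at 99.3 to 111 CPM against 139 to 243 CPM.

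Entry of acyl groups into mitochondria is gated by Cpt1a, the outer-membrane carnitine palmitoyltransferase that malonyl-CoA inhibits. Cpt1a was at 346 ± 74.7 CPM (SD, n = 4) in WT vehicle and 281 ± 37.1 CPM (SD, n = 4) in WT PRA liver. That difference did not pass (log2 fold change -0.30, SE 0.16, edgeR adjusted p = 0.186), nor did that between knockout PRA and knockout vehicle (-0.13, SE 0.17, adjusted p = 0.645). None of the 5 genes of the carnitine shuttle and the acyl-carnitine transferases was called with furosemide. Log2 fold changes in WT ran from -0.74 for Crat, a carnitine acetyltransferase, to 0.12 for Cpt2, the inner-membrane partner of Cpt1a. Crat had an SE of 0.34. With WT vehicle replicate 4 left out, Cpt1a was at -0.17, Crat at -0.29 and Cpt2 at 0.24 on the log2 scale, and none of the 3 passed.

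The enzymes of the mitochondrial cycle itself gave no call with furosemide in either genotype in the main edgeR test. They comprised 15 genes, namely the acyl-CoA dehydrogenases Acadvl, Acadl, Acadm and Acads, the electron transfer proteins Etfa, Etfb and Etfdh, the trifunctional protein subunits Hadha and Hadhb with Hadh and Acaa2, and the auxiliary enzymes Decr1, Eci1, Eci2 and Ech1. With furosemide 0 of the 15 were called in WT, beside 12.3% of all genes lower and 9.74% higher, and log2 fold changes ran from -0.18 to 0.32 with SEs of 0.077 to 0.15. In knockout liver 0 of the 15 were called as well, beside 8.38% lower and 7.96% higher, with log2 fold changes from -0.03 to 0.36. With furosemide 1 of the 15 had an unadjusted p under 0.05 in WT and 3 in the knockout. In other comparisons 1 of the 15 was called between knockout PRA and WT PRA (Acadm) and 1 between WT PRA and normal liver (Eci2), both described below. Other settings called more, and limma-voom was always run with sample weights. Ech1 was higher in knockout PRA than in WT PRA with the 1 CPM filter, only the groups compared, DESeq2 and limma-voom, and Acadl by limma-voom. Against normal liver, only the groups compared added Etfb, Hadhb, Hadh, Decr1 and Eci1. Limma-voom added the same genes except Decr1, and upper quartile scaling called Hadhb. The highest group mean was 1.09 to 1.41 times the lowest, with a median of 1.16. Acadvl, the very long chain dehydrogenase, was at 377 ± 26.9 CPM (SD, n = 4) in WT vehicle and 395 ± 17.6 CPM (SD, n = 4) in WT PRA liver.

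Eci2, an enoyl-CoA isomerase needed for unsaturated chains, gave a call that depended on the libraries and the tool. WT vehicle libraries held 167, 173, 162 and 278 CPM, and WT PRA libraries 236, 268, 239 and 233 CPM. With all libraries the difference did not pass (log2 fold change 0.32, SE 0.15, edgeR adjusted p = 0.127). Without WT vehicle replicate 4, the one at 278 CPM, WT PRA was higher (0.55, adjusted p = 0.00326). By limma-voom with all libraries, which its sample weights let count unequally, WT PRA was also higher (0.39, adjusted p = 0.0352). Hadh, the short-chain 3-hydroxyacyl-CoA dehydrogenase, was called lower in WT by limma-voom and without WT vehicle replicate 1.

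Peroxisomal members gave no call with furosemide in either genotype in the main edgeR test. They comprised the bifunctional enzymes Ehhadh and Hsd17b4, the thiolases Acaa1a and Acaa1b, the reductase Decr2 and Pex11a, a membrane protein of peroxisome division. Their log2 fold changes ran from -0.26 to 0.10 in WT and from -0.19 to 0.43 in the knockout, the top value being that of Pex11a (SE 0.16, edgeR adjusted p = 0.0715). Ehhadh was called lower in WT with upper quartile scaling and without WT vehicle replicate 3. Pex11a was called higher in the knockout with only the groups compared. Acaa1a and Acaa1b are near copies: their longest coding transcripts in GENCODE M21 were 90.4% identical over 1682 aligned positions. Of the 150-base windows of the Acaa1a transcript, 12.7% also occurred in Acaa1b. Reads not uniquely aligned were not counted, so both genes could lose reads there. Vnn1 and Aldh3a2, a fatty aldehyde dehydrogenase, were lower in WT PRA by values that did not pass in the main edgeR test (log2 fold change -0.84, SE 0.46, and -0.60, SE 0.24). Both had their highest value in WT vehicle replicate 4, at 49.9 and 303 CPM, and without it their log2 fold changes were -0.15 and -0.27. Aldh3a2 was called lower by DESeq2 and without WT vehicle replicate 3.

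Knockout liver with furosemide was compared with knockout vehicle, and 0 of the 33 genes passed, while 8.38% of all genes were lower and 7.96% higher. At an unadjusted p under 0.05 there were 7, and the count was 0 with DESeq2 and 2 with limma-voom, where Bdh1 fell and Acadm rose. The median log2 fold change was 0.02, against -0.00 for all genes. Bdh1 was at 199, 149, 189 and 165 CPM with vehicle and at 136, 145 and 121 CPM with furosemide. All 3 PRA values lay below all 4 vehicle values, with a log2 fold change of -0.39 (SE 0.15, edgeR adjusted p = 0.0743). Of the 33 genes Bdh1 was the only 1 wholly below, beside 13.2% of all genes. Another 7 lay wholly above, beside 11.9% of all genes, and none of these was called. Ppara was at 11.0, 8.03, 12.9 and 12.4 CPM with vehicle and 7.99, 7.26 and 9.07 CPM with furosemide, so the groups overlapped (-0.45, SE 0.18, adjusted p = 0.103). Fabp1 had a log2 fold change of -0.48 (SE 0.21, adjusted p = 0.137) and Acsl1 one of -0.43 (SE 0.24, adjusted p = 0.246). Without knockout vehicle replicate 2 the test called 3 genes lower, namely Fabp1 (-0.66, adjusted p = 0.0164), Ppara (-0.57, adjusted p = 0.0295) and Bdh1 (-0.46, adjusted p = 0.0429). Without knockout PRA replicate 3 it called Cd36 alone (-0.59, adjusted p = 0.0154).

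**Figure D4:**
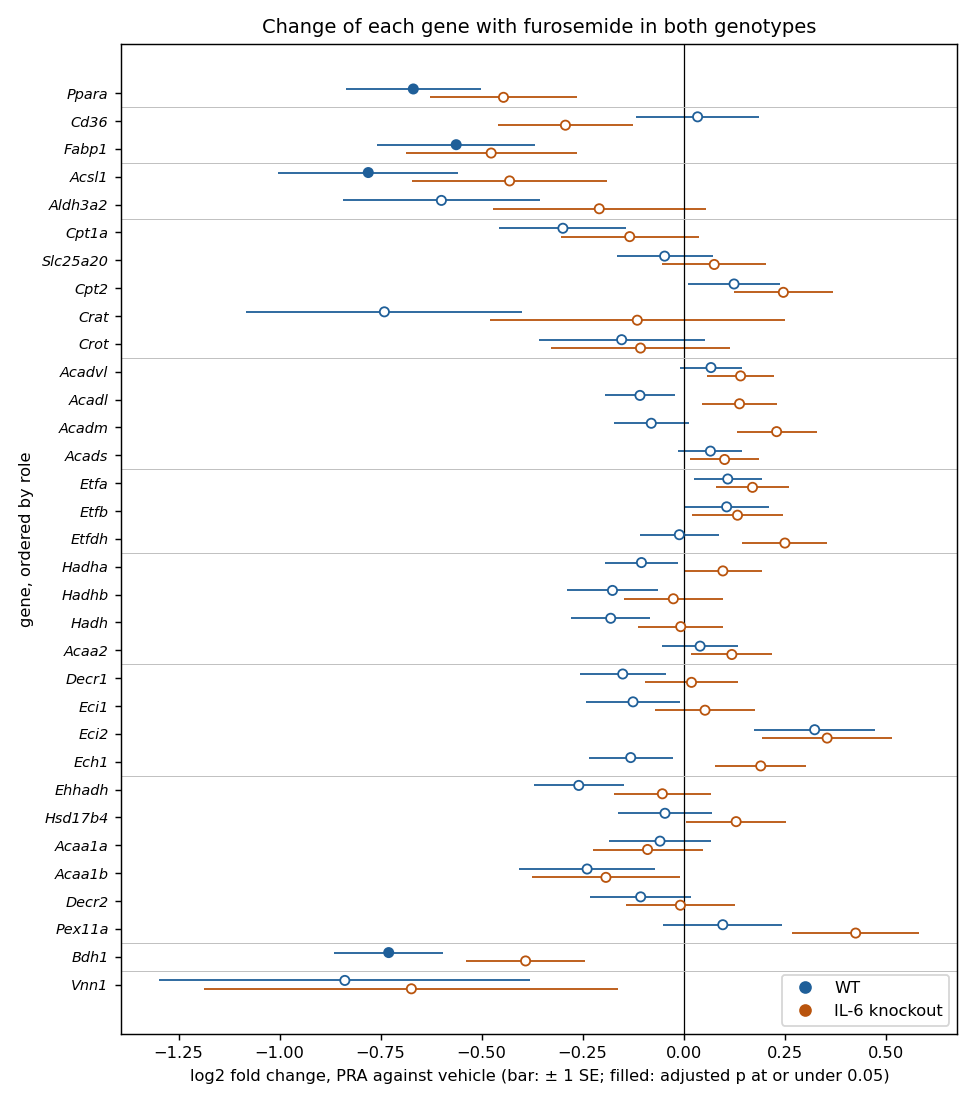
Log2 fold change of each of the 33 genes with furosemide (horizontal axis, ± 1 SE) in WT and in knockout liver, by role; filled points have an adjusted p of at most 0.05. The 4 filled points are Ppara, Fabp1, Acsl1 and Bdh1 in WT, at -0.78 to -0.56, and the knockout points of the same genes lie between -0.48 and -0.39.

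Whether the response differed between genotypes was tested as an interaction, and 0 of the 33 genes passed, as did 0.0385% of all genes upward and 0.437% downward. At an unadjusted p under 0.05 there were 2 of the 33, and DESeq2 and limma-voom called 0 each. The log2 difference of responses, knockout minus WT, was 0.34 for Bdh1 (SE 0.20, edgeR adjusted p = 0.686), 0.22 for Ppara (SE 0.25, adjusted p = 0.887), 0.35 for Acsl1 (SE 0.33, adjusted p = 0.852) and 0.09 for Fabp1 (SE 0.29, adjusted p = 0.979). A fall called in WT and not in the knockout was therefore not shown to differ between them. The difference was positive for 31 of the 33 genes, with a median of 0.17 against 0.03 over all genes, but that median was 0.04 without WT vehicle replicate 4.

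Knockout PRA and WT PRA livers were also compared directly. Acadm, the medium-chain acyl-CoA dehydrogenase, was higher in the knockout and Cd36 was lower, beside 1.64% of all genes higher and 2.15% lower. Acadm was at 395, 342 and 377 CPM in knockout PRA and at 277, 297, 286 and 272 CPM in WT PRA. The ranges did not overlap and the ratio was 1.31 (log2 fold change 0.39, SE 0.099, edgeR adjusted p = 0.027). Cd36 was at 8.83, 10.1 and 15.8 CPM in knockout PRA and at 17.5, 14.9, 19.5 and 18.6 CPM in WT PRA. Here knockout PRA replicate 3 overlapped the WT range (1.52-fold lower, log2 fold change -0.60, SE 0.17, adjusted p = 0.0483). Neither call was firm. The Acadm call was lost without WT PRA replicate 1, 3 or 4 or knockout PRA replicate 1 or 3 (adjusted p 0.0637 to 0.169), and that of Cd36 without WT PRA replicate 1, 3 or 4 or knockout PRA replicate 1 or 2 (adjusted p 0.0788 to 0.246).

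With vehicle alone, 0 of the 33 genes differed between knockout and WT, beside 0.0514% of all genes higher and 0.0193% lower. At an unadjusted p under 0.05 there were 2, and DESeq2 and limma-voom called 0 each. Hadha and Hadhb, the subunits of the trifunctional protein, lie next to the targeted gene, 98.3 and 135 kb from Il6 on chromosome 5 in GENCODE M21 (GRCm38). Their log2 differences between knockout and WT vehicle were 0.00 (SE 0.090) and 0.08 (SE 0.11). In PRA liver Hadha was at 351 to 353 CPM in the knockout and 296 to 311 CPM in WT. Hadhb was at 109 to 122 CPM in knockout PRA and 89.6 to 105 CPM in WT PRA. Neither was called there. Knockout PRA lay wholly above WT PRA for 10 of the 33 genes and wholly below for 1, beside 8.48% and 7.26% of all genes. Of these 11 genes 10 were not called. Il6 itself had 0 to 4 counts per library in WT and 1 to 16 counts in knockout libraries, so at this depth the targeted gene did not tell the genotypes apart. Abhd1, 0.93 Mb from Il6, did so: it was at 48.4 CPM or more in each knockout library and at 4.56 CPM or less in each WT library.

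Normal liver served to place the injections. Between WT vehicle and normal liver 0 of the 33 genes passed, beside 1.18% of all genes higher and 0.822% lower. There were 2 at an unadjusted p under 0.05, and DESeq2 and limma-voom called 0 each. Without WT vehicle replicate 4 Bdh1 was called lower in WT vehicle, and 9 of the 33 had an unadjusted p under 0.05. The median log2 fold change of the 33 genes was 0.01 with all libraries and -0.09 without that library. Over all genes it was 0.01 in each case. Between WT PRA and normal liver 6 of the 33 passed, 4 lower and 2 higher, beside 14.9% of all genes lower and 13.5% higher. Those lower were Bdh1, Acsl1, Fabp1 (log2 fold change -0.67, adjusted p = 0.0137) and the peroxisomal thiolase Acaa1b (-0.58, adjusted p = 0.0132). Acaa1b was at 784, 782, 744 and 814 CPM in normal liver and at 520, 491, 487 and 587 CPM in WT PRA liver. Those higher were Pex11a, at 84.2 ± 15.5 against 114 ± 5.67 CPM (SD, n = 4 each, log2 fold change 0.44, adjusted p = 0.0301), and Eci2, at 185 ± 20.6 against 244 ± 16.5 CPM (SD, n = 4 each, 0.40, adjusted p = 0.0499). The groups lay apart for 14 of the 33 genes, these 6 and 8 that did not pass, beside 33.6% of all genes. The calls of Bdh1, Acsl1, Fabp1 and Acaa1b held without each library of either group in turn, that of Eci2 was lost without any one of the 8, and that of Pex11a was lost without normal replicate 1 or 4 or WT PRA replicate 1, 2 or 4 (adjusted p 0.0574 to 0.108).

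Other genes of fatty acid and ketone metabolism were counted in 6 further lists of 120 tested genes. With furosemide 11 were higher and 14 lower in WT, and 13 higher and 9 lower in the knockout. In WT these are 9.17% higher and 11.7% lower, near the 9.74% and 12.3% of all genes. In the knockout they are 10.8% higher and 7.5% lower, beside 7.96% and 8.38% of all genes. Of 8 genes of ketone body metabolism and transport, 1 was called in WT, the monocarboxylate carrier gene Slc16a6, at 6.48 ± 0.679 CPM with vehicle and 13.4 ± 2.35 CPM with furosemide (SD, n = 4 each, adjusted p = 0.0183, 0.0379 without WT vehicle replicate 4 and 0.0512 without WT PRA replicate 3). Of 20 other mitochondrial genes, 2 were higher and 2 lower in WT, and 2 higher and 0 lower in the knockout. Of 32 other peroxisomal genes, 1 was higher and 4 lower in WT, and 1 higher and 7 lower in the knockout. Hacl1, which removes 1 carbon from 2-hydroxy acids in the α-oxidation of branched chains, fell in both, 61.1 ± 5.78 to 37.5 ± 1.85 CPM in WT (SD, n = 4 each, adjusted p = 0.00182) and 56.9 ± 12.6 to 30.3 ± 3.59 CPM in the knockout (SD, n = 4 and 3, adjusted p = 0.000667). Of 17 other genes of activation, uptake and binding, 2 were higher and 2 lower in WT, and 1 each in the knockout.

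Of 21 regulators of fatty acid oxidation, 3 (14.3%) were higher and 1 (4.76%) lower in WT, beside 9.74% and 12.3% of all genes. In the knockout 5 (23.8%) were higher and 0 lower, beside 7.96% and 8.38% of all genes. Foxo1, a transcription factor of the fasting response that insulin holds out of the nucleus, rose from 28.6 ± 6.08 to 58.4 ± 6.19 CPM in WT (SD, n = 4 each, edgeR adjusted p = 0.000104) and from 23.4 ± 2.33 to 64.5 ± 8.31 CPM in the knockout (SD, n = 4 and 3, adjusted p = 7.75e-06). Ppard, a relative of Ppara, rose 1.48-fold in WT (adjusted p = 0.00262) and 1.78-fold in the knockout (adjusted p = 0.000213). Ppargc1b, a coactivator of mitochondrial genes, fell from 4.84 ± 1.21 to 2.05 ± 0.413 CPM in WT (SD, n = 4 each, adjusted p = 0.000866). Without WT vehicle replicate 4 the WT calls of Hacl1, Foxo1, Ppard and Ppargc1b held, at log2 fold changes of -0.65, 0.94, 0.59 and -1.27. Without knockout vehicle replicate 2 the knockout calls of Hacl1, Foxo1 and Ppard held, at adjusted p of 0.000362, 2.44e-05 and 0.000547.

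Known PPARα targets outside these pathways were called in both directions. Of 22 such genes, 2 (9.09%) were higher and 5 (22.7%) lower in WT, beside 9.74% and 12.3% of all genes. In the knockout 4 (18.2%) were higher and 1 (4.55%) lower, beside 7.96% and 8.38% of all genes. Cyp4a10 and Cyp4a14, fatty acid ω-hydroxylases, were in WT vehicle between 101 and 418 CPM and between 23.0 and 293 CPM. In WT PRA they were between 26.2 and 45.1 CPM and between 6.83 and 11.7 CPM, so neither range overlapped (adjusted p = 0.00143 and 0.00478, and 0.003 and 0.0156 without WT vehicle replicate 4). In knockout PRA Cyp4a10 was between 165 and 315 CPM, 6.35-fold above WT PRA (adjusted p = 0.00556). Its interaction, a log2 difference of 3.04, did not pass (SE 0.66, adjusted p = 0.0606). Angptl4, a secreted inhibitor of lipoprotein lipase, rose 1.68-fold in WT (adjusted p = 0.0101) and 2.35-fold in the knockout (adjusted p = 0.00054). The WT call held without WT vehicle replicate 4 (log2 fold change 0.77), and the knockout call held without knockout vehicle replicate 2 (1.22).

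Cell type markers were read in the same libraries. All 8 hepatocyte markers were detected in every group, with a summed level of 69398 to 143089 CPM. Between WT vehicle and WT PRA this sum moved from between 72185 and 94018 to between 95755 and 102380 CPM, and 2 of the 8 were higher. Periportal markers, which mark the zone with more β-oxidation, moved from between 7949 and 12525 to between 13978 and 15856 CPM, with 2 of 8 higher. Of 6 neutrophil markers 5 were higher in WT PRA, at a summed 10.7 to 12.6 CPM against 1.56 to 3.30 CPM, and of 9 markers of sinusoidal endothelium, a cell type that expresses Cd36, 5 were lower and 1 was higher. The endothelial sum was 233 to 281 CPM in WT PRA and 246 to 381 CPM in WT vehicle. Also in WT PRA, 4 of 5 tested red blood cell markers were higher (summed 167 to 211 against 139 to 152 CPM), as were 2 of 3 platelet, 1 of 6 monocyte and 1 of 5 cholangiocyte markers. Of the stellate cell and fibroblast markers 4 of 8 were lower (101 to 210 against 170 to 214 CPM), as were 2 of 4 B cell markers (0.288 to 0.676 against 0.654 to 2.18 CPM). In knockout PRA against knockout vehicle 3 of 8 hepatocyte, 3 of 8 periportal, 2 of 6 neutrophil, 1 of 3 platelet and 1 of 9 endothelial markers were higher. Lower there were 4 of 4 B cell, 3 of 8 stellate cell and fibroblast, 3 of 9 endothelial, 1 of 8 pericentral and 1 of 6 monocyte markers. No tested marker of Kupffer cells, T and NK cells, adipocytes or muscle passed in either comparison. Their part in the changes above was not tested, and in whole liver fewer cells of a type and less RNA per cell cannot be told apart.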

How the data were processed

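Liver RNA was measured by poly(A)-selected, paired-end RNA sequencing in 19 libraries. Reads were aligned with HISAT2 2.2.1, handled with SAMtools 1.13 and counted with HTSeq 0.11.3 on GRCm39, per the submitters' processing notes; neither notes nor labels name the annotation release or strand setting. The deposited values are raw counts per gene, which the authors did not normalise, and the table holds no lines for unassigned reads. Per-library files, equal to the table in every gene, also list reads left out of these counts: 14.1% to 19.2% not uniquely aligned, 6.28% to 7.58% in no feature and 0.505% to 0.639% ambiguous, so near copies may lose reads.

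The counts were filtered with edgeR's filterByExpr, scaled by TMM and fitted with robust quasi-likelihood models over all 5 groups in edgeR 4.0.16 (R 4.3.3), and p-values were Benjamini-Hochberg adjusted over 15570 genes at a threshold of 0.05. SE is the absolute log2 fold change over the square root of F. The code was tested on simulated data. Gene counts per library, 32073865 to 74041441, put the floor of 3 counts at 0.0405 to 0.0935 CPM, for counting error only. Other settings tried were upper quartile or RLE scaling, no filter, a 1 CPM filter in 3 libraries and DESeq2 1.42.0. Further ones were limma-voom with sample weights (limma 3.58.1), the groups compared alone, a replicate block and each library left out. Replicate libraries differed beyond counting noise (chi-square per degree of freedom at least 22.7). Promoters are from RefSeq on GRCm38.p6 and exon lengths from GENCODE M21, and were not mixed with the counts' build.

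The genes and lists were chosen with earlier results of these data known. Genes called in at least 1 of 7 contrasts, and Ppara, Cpt1a and Bdh1, are given with values; of each further list up to 4 called genes per contrast with a mean of at least 2 CPM could be named. Others named beside them (Crat, Cpt2, Acadvl, Aldh3a2, Vnn1, Hadha and Hadhb) were chosen after their values were seen.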

Additional observations from a re-analysis of the deposited data

Results flagged for a closer look

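Of 132 sets of values of 1 gene in 1 group of 4 libraries, 8 (6.06%) held a library whose gap to the nearest other exceeded Dixon's 95% limit, and chance flags about 1 in 20 (5%). In WT vehicle, replicate 4 was far above the rest for Acadvl, at 416.8 CPM against 361 to 364.5 CPM. The same library stood far above the rest for Hadhb (140.3 CPM, the next at 104), Eci2 (277.9 CPM, the next at 173) and Vnn1 (49.89 CPM, the next at 16.92). In WT PRA, replicate 3 was far below the rest for Acsl1, at 267.2 CPM against 386.8 to 405.2 CPM, and replicate 2 was far above for Eci2, at 268.5 CPM against 232.7 to 238.5 CPM. In normal liver, replicate 3 was high for Acadm (302 CPM, the next at 271.9) and replicate 4 was low for Ech1 (199.9 CPM, the next at 225.5).

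Among the 120 tested genes of the further lists, 2 passed edgeR's interaction test of the furosemide response in knockout and WT liver. They were 1 higher and 1 lower (0.833% each), beside 0.0385% of all genes higher and 0.437% lower. Amacr, a peroxisomal racemase of branched-chain and bile acid intermediates, had a log2 response that was lower in the knockout (-0.6535, adjusted p = 0.0247). It was at 159 ± 13.2 and 180 ± 11.8 CPM in WT vehicle and WT PRA (SD, n = 4 each), while the knockout libraries lay between 138 and 186 CPM with vehicle and between 110 and 122 CPM with furosemide. Plin5, a lipid droplet protein of oxidative tissues, had a log2 response that was higher in the knockout (1.236, adjusted p = 0.0258), with 79.8 ± 16.4 and 106 ± 13.8 CPM in WT and 58.5 ± 9.02 and 183 ± 49.1 CPM in the knockout. Leaving out 1 of the 15 libraries lost the call of Amacr in 7 cases (adjusted p up to 0.0842 over all alternatives) and that of Plin5 in 9 (up to 0.0952). Both calls were also lost with the replicate block, that of Amacr with only the groups compared, and that of Plin5 without a filter.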

How the results depend on the processing

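The WT falls of Bdh1 (log2 fold change -0.82 to -0.53) and Ppara (-0.77 to -0.51) kept their direction and call in all 16 alternatives each. Calls among the 33 genes in WT were 4 in the main test, with the 1 CPM filter and with only the groups compared, 3 with RLE scaling or the replicate block, 2 without a filter, 5 with upper quartile scaling or DESeq2, 6 with limma-voom (1 of them higher), and 3 to 5 with 1 library left out. Fabp1 was lost with RLE scaling (adjusted p = 0.0537) and without a filter (0.0908), and Acsl1 without a filter (0.0528). In the knockout they were 0, with upper quartile scaling 2, with only the groups compared 1, with limma-voom 2, and 0 to 3 with 1 library left out. Between knockout PRA and WT PRA they were 2, without a filter 1, with the replicate block 1, with limma-voom 4, and 0 to 2 with 1 library left out. For WT vehicle against normal they were 0, and 0 to 1 with 1 library left out. For WT PRA against normal they were 6, and 15 both with only the groups compared and with limma-voom.

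In the further lists, interaction calls were 2, without a filter 1, with the replicate block 0, with DESeq2 6, and 0 to 3 with 1 library left out. Knockout PRA against WT PRA gave 7, with only the groups compared 15, with DESeq2 11, with limma-voom 12, and 4 to 7 with 1 library left out. Knockout against WT vehicle gave 0, with DESeq2 2 and with limma-voom 1. WT vehicle against normal gave 1, but 2 with RLE scaling, upper quartile scaling, the 1 CPM filter, the replicate block or only the groups compared, 3 with DESeq2, 4 with limma-voom, and 1 to 2 with 1 library left out. The causes of these shifts were not tested.

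Signs turned only in uncalled values. Cd36 in WT (0.03) was -0.011 with upper quartile scaling and ran from -0.031 to 0.15 with 1 library left out, below 0 without WT vehicle replicate 2 or 3 or WT PRA replicate 3. With 1 library left out, Acadm in WT (-0.08) ran from -0.12 to 0.0030, above 0 without WT vehicle replicate 4; Pex11a in WT (0.10) ran from -0.036 to 0.28, below 0 without WT vehicle replicate 3; and Cpt1a in the knockout (-0.13) ran from -0.36 to 0.012, above 0 without knockout PRA replicate 2. Of the other fold changes of single genes, 376 kept direction and side of the threshold, 42 lost a call and 11 gained one.

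Same-numbered libraries of different groups correlated between -0.253 and 0.193 over 36 pairs, with a median of 0.005 against -0.008 for other pairs. Over all tested genes together no pairing by number was thus seen, and a pairing in part of the genes or libraries was not tested. With the replicate block the WT count was 3, since Fabp1 was lost (adjusted p = 0.0631), and that for WT PRA against normal was 4. All 33 genes passed the filter on low counts, and whether depth bears on their calls was not tested.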
